A study of Mus musculus with 60 samples.

Results

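The long noncoding RNAs Neat1 and Malat1 and 4 proteins of the nuclear bodies built on Neat1, Sfpq, Nono, Pspc1 and Rbm14, were followed in the mouse cortex through sleep deprivation and recovery sleep. Members were all probesets that the platform's probe-to-gene table assigns to these 6 genes, each kept on its own, which gave 8 of the 41345 probesets on the array. Neat1, Sfpq, Nono and Pspc1 had 1 probeset each, and Malat1 and Rbm14 had 2 each. Both Rbm14 probesets also carry the symbol of another RNA-binding protein gene, Rbm4, so their signal cannot be assigned to Rbm14 alone. All 8 probesets exceeded a log2 value of 4, the limit for being tested, in all 59 arrays.

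RNA of the left cortical hemisphere was hybridised to Affymetrix Mouse Gene ST arrays, with a separate mouse on each array. All mice were individually housed C57BL/6J males of 2 months that had been handled daily, with light brushing, for 6 days. Sleep deprivation by brushing began at lights on (ZT0) and lasted 6 h in SD mice (n = 7, taken at ZT6). RS2 mice (n = 4) had the same 6 h followed by 2 h of recovery sleep and were taken at ZT8. RS3 mice (n = 7, ZT8) and RS6 mice (n = 7, ZT11) had 5 h of sleep deprivation followed by 3 h and 6 h of recovery sleep. Circadian controls were left undisturbed and are named by the hours since lights on at which they were taken, with 7 mice each in CC0, CC6, CC8 and CC11 and 6 in CC7. The RS2 and RS3 comparisons share the CC8 mice, and the comparisons between controls reuse the CC6 and CC11 mice.

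Paraspeckles are nuclear bodies that assemble around the long isoform of the Neat1 transcript. The RNA-binding proteins SFPQ, NONO and PSPC1, which form one family and pair with each other, coat this RNA, and in cultured human cells SFPQ, NONO and RBM14 are needed for the bodies to form. Paraspeckles retain certain RNAs and proteins in the nucleus and enlarge in many forms of cell stress. Malat1, transcribed from the neighbouring gene, is one of the most abundant nuclear RNAs of neurons and gathers in nuclear speckles, where splicing factors are stored.

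The promoters of the SFPQ family were chosen for display after Sfpq, but not Nono or Pspc1, had passed the threshold after sleep deprivation. They are a description, and whether their sequence bears on these calls was not tested. RefSeq sequences (GRCm38.p6) of the 250 bases before the gene start, read 5′ to 3′ on the strand of the gene, were found for 5 of the 6 genes. Capitals mark CCAAT on either strand, the core of the CCAAT box.
Sfpq, chr4:127021051-127021300, plus strand: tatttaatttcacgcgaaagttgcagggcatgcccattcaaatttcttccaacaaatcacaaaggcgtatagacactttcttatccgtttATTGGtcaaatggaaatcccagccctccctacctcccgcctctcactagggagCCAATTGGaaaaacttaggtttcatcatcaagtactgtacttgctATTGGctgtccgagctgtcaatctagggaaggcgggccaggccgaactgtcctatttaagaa
Nono, chrX:101429401-101429650, plus strand: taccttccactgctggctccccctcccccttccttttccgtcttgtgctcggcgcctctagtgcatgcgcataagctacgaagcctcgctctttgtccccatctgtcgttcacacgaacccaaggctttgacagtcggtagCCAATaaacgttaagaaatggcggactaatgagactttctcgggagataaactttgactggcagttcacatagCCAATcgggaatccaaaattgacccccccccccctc
Pspc1, chr14:56778319-56778568, minus strand: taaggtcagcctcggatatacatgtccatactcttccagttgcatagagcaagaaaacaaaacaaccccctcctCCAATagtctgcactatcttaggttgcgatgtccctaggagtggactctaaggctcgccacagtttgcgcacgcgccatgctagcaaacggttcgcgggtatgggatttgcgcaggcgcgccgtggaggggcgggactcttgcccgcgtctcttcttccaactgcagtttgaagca
The Sfpq window held CCAAT 4 times, 2 of them overlapping each other, the Nono window 2 times and the Pspc1 window 1 time. The Rbm14 window, which is not printed, held it 4 times and the Malat1 window 0 times. Of 32851 promoter windows of this length, 33.8% held it at least 1 time, and the share that held it several times was not counted. The cyclic AMP response element TGACGTCA (1.55% of windows), the E-box CACGTG of the clock proteins (6.02%), the heat shock core GAANNTTC (6.69%) and the AP-1 site TGACTCA (4.46%), each searched on both strands, had 0 matches in all 5 windows, which says only that these letters are not there.

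Among the 59 arrays, 5 stood apart from the rest on the first principal component of the deposited values. These were SD replicates 1 and 2, CC0 replicate 1, RS6 replicate 1 and CC8 replicate 1, with scores from -136 to -30.0 where the next array, CC7 replicate 1, scored -13.1. The mean level of 75 small nucleolar RNA probesets lay between 8.39 and 9.37 in these 5 arrays, against 7.64 to 8.20 in the other 54. Excitatory neuron markers of the cortex were high in all groups (group means 9.94 to 10.13 on the log2 scale over 7 markers), and markers of the underlying striatum varied widely between mice (7 markers, per-array means from 7.82 to 9.68). Results are therefore given on the deposited RMA values, after removal of unwanted variation (RUV, 6 factors estimated from the differences within groups) and without the 5 arrays. Because RUV takes its factors from differences within groups, a narrow spread within groups after RUV is partly built in. Groups that do not overlap are therefore given as a description only. The share of all probesets whose groups do not overlap was not counted, before or after RUV.

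The members did not follow the 5 arrays alike. Neat1 was below the range of the rest of its group in all 5. Measured from the median of the rest of its group on the log2 scale, it stood at -1.78 in SD replicate 1, -1.45 in CC0 replicate 1, -0.86 in RS6 replicate 1, -0.42 in SD replicate 2 and -0.38 in CC8 replicate 1. Sfpq was also below the others in all 5, at -0.70 to -0.27, as was the brighter Malat1 probeset at -0.57 to -0.07. The dimmer Malat1 probeset and the second Rbm14 probeset went the other way, by up to 0.48 and 0.62. Pspc1 stayed within the range of its group in 4 of the 5. What sets these arrays apart was not tested.

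**Figure D1:**
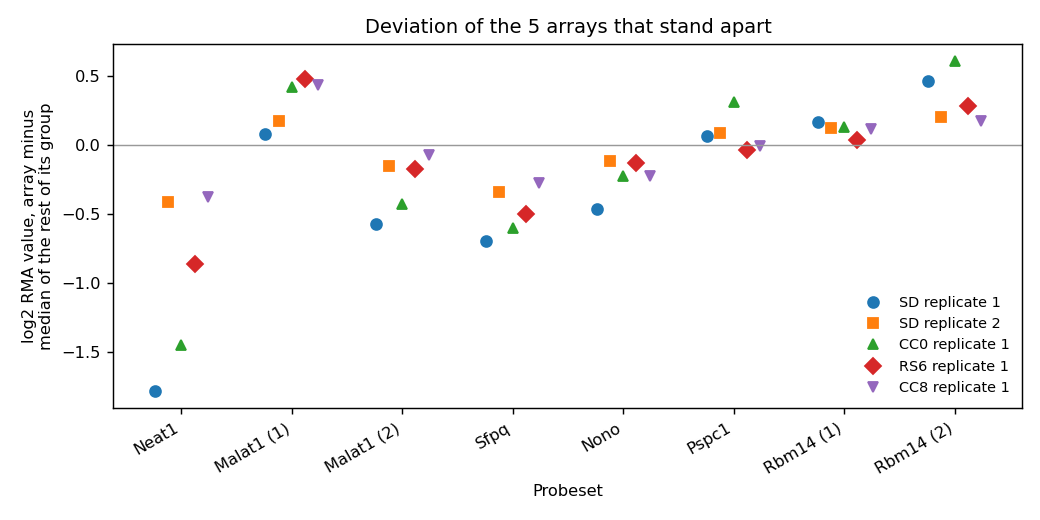
Deviation of each of the 5 arrays that stand apart, as its log2 RMA value minus the median of the remaining arrays of its group (y axis), for the 8 probesets (x axis; Malat1 (1) is the dimmer and Malat1 (2) the brighter Malat1 probeset). Neat1 deviated furthest, at -1.78 in SD replicate 1, while Pspc1 lay within the range of its group in 4 of the 5 arrays.

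Within genes the level of a probeset depends on its probes, so levels are compared between mice only. Averaged over the 59 arrays, the brighter Malat1 probeset (17361798) had a log2 RMA value of 12.93, above 99.9% of the probesets on the array, and the dimmer one (17356556) 9.78. Neat1 (17361805) averaged 7.74, Sfpq 8.69, Nono 9.82, Pspc1 8.79 and the Rbm14 probesets 9.01 (17361338) and 8.78 (17361344). Over the 59 arrays Neat1 was the most variable member, with a pooled SD within groups of 0.35. Over the 54 arrays without those that stand apart it had 0.14, below the dimmer Malat1 probeset with 0.16. The brighter Malat1 probeset was the least variable of the 8 over the 54 arrays, with 0.050.

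After 6 h of sleep deprivation Sfpq was the member that passed the threshold. Its log2 RMA values in SD mice were 8.17 at the lowest, 8.85 at the median and 8.97 at the highest, against 8.48, 8.68 and 8.78 in CC6 mice. In 5 of 7 SD mice Sfpq exceeded every CC6 mouse, and the other 2 SD mice were those whose arrays stand apart, one below all CC6 mice and one among them. After RUV all 7 SD mice (8.76 to 8.99) lay above all 7 CC6 mice (8.52 to 8.73). The difference was 0.24 (SE 0.055, 95% CI 0.13 to 0.35), a 1.18-fold rise, with an adjusted p of 0.00433 by limma with Benjamini-Hochberg adjustment over 32819 probesets. Sfpq was 1 of 8 member probesets called at an FDR under 0.01, where 1.93% of all probesets were called. In bulk tissue, more cells of a type and more RNA per cell cannot be told apart. Beside Sfpq, 2 of 9 oligodendrocyte markers and 1 of 9 microglial markers were called lower and 1 of 10 astrocyte markers higher in SD mice. Their list medians were -0.07, 0.01 and 0.03, and the median over 7 striatal markers was -0.28. The part of these cell types was not tested, nor that of the striatal markers beyond a covariate. With the striatal level as a covariate in place of RUV Sfpq did not pass, nor did it with no RUV alone.

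The size of the Sfpq difference held without the 5 arrays, but its call did not hold under every setting. Without them the difference was 0.24 after RUV (adjusted p = 0.00392) and 0.23 without RUV (adjusted p = 0.0515). With all arrays and no RUV it was 0.07 (adjusted p = 0.675). Leaving out each mouse in turn gave 0.22 to 0.26, past the threshold in 10 of 14 cases, and the adjusted p was 0.013 without SD replicate 6, 0.0156 without SD replicate 7, 0.0167 without CC6 replicate 6 and 0.0143 without CC6 replicate 7.

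**Figure D2:**
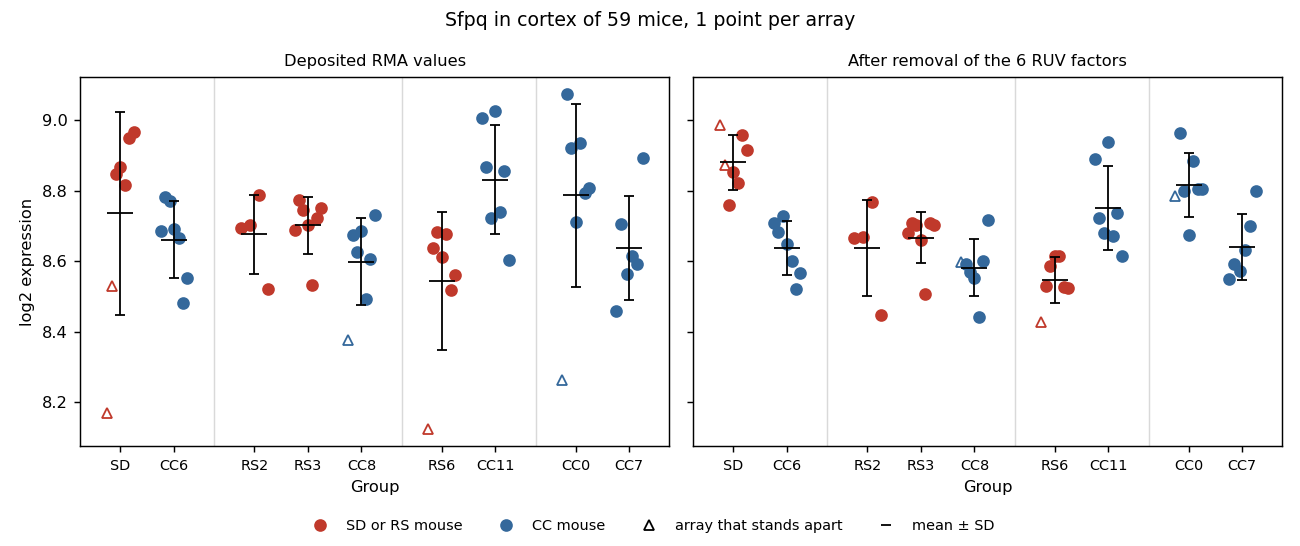
Sfpq in every mouse (log2 expression, y axis) by group (x axis), on deposited RMA values at left and after removal of the 6 RUV factors at right, with bars at the mean ± SD and open triangles for the 5 arrays that stand apart. After RUV all SD mice lie above all CC6 mice and all RS6 mice lie below all CC11 mice, while on RMA values both pairs of groups overlap. A narrow spread after RUV is partly built in.

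The partners of Sfpq did not pass in SD mice. Nono, with which SFPQ pairs, had values of 9.33, 9.79 and 9.85 (lowest, median, highest) in SD mice and 9.75, 9.81 and 9.93 in CC6 mice, and the groups overlapped. The RUV difference was -0.04 (95% CI -0.11 to 0.04, adjusted p = 0.681 by limma). Pspc1, the third family member, had 8.66, 8.80 and 8.85 in SD mice and 8.66, 8.78 and 8.86 in CC6 mice, a difference of 0.01 (95% CI -0.08 to 0.09). These intervals leave out changes in Nono and Pspc1 as large as the one estimated for Sfpq, though the differences between the genes were not tested.

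The second Rbm14 probeset came closest to Sfpq. It read 8.84, 8.97 and 9.37 in SD mice against 8.58, 8.75 and 8.88 in CC6 mice, and 6 of 7 SD mice exceeded all CC6 mice. Its difference after RUV was 0.17 (SE 0.060, 95% CI 0.05 to 0.29), which did not pass (adjusted p = 0.115 by limma), and 0.28 without RUV (adjusted p = 0.0283). The 2 highest SD values of the second probeset, 9.37 and 9.11, were those of SD replicates 1 and 2, whose arrays stand apart. Without these arrays its SD mean was 8.92 on RMA values (n = 5), against 8.74 in CC6 mice (n = 7). The first Rbm14 probeset differed by 0.02 after RUV (95% CI -0.08 to 0.11), so the 2 probesets of this gene pair did not give the same estimate. Over the 59 arrays they correlated at 0.25 after RUV and 0.49 on RMA values.

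Neat1 and Malat1 gave no call in SD mice. Neat1 read 6.13, 7.75 and 8.07 in SD mice and 7.71, 7.81 and 8.00 in CC6 mice. Its lowest SD values belonged to the 2 arrays that stand apart, and the sign of its difference depended on them. It was 0.09 after RUV (95% CI -0.06 to 0.24, adjusted p = 0.632 by limma), -0.26 on RMA values (adjusted p = 0.401) and 0.04 on RMA values without the 5 arrays. The brighter Malat1 probeset differed by 0.03 (95% CI -0.02 to 0.09) and the dimmer one by -0.08 (95% CI -0.24 to 0.07).

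During recovery sleep the estimates for Neat1 lay 0.31 to 0.44 above those of undisturbed mice of the same time of day on the log2 scale, and the one after 6 h of recovery passed the threshold. After 2 h of recovery it read 8.12, 8.06, 7.90 and 7.74 in the 4 RS2 mice, against 7.28, 7.63 and 7.71 (lowest, median, highest) in CC8 mice, and all 4 RS2 mice lay above all CC8 mice, 3 of 4 after RUV. The RUV difference was 0.31 (SE 0.082, 95% CI 0.14 to 0.47). It did not pass (adjusted p = 0.0618 by limma), and leaving out each mouse in turn gave 0.24 to 0.40 with no call. None of the 8 member probesets was called in RS2 mice (1 at an unadjusted p under 0.05, 0 without RUV), with 0.299% called among all probesets.

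After 3 h of recovery Neat1 read 7.90, 7.93 and 8.05 in RS3 mice against 7.28, 7.63 and 7.71 in the same CC8 mice. The groups did not overlap on RMA values or after RUV, with or without CC8 replicate 1. The RUV difference was 0.32 (SE 0.071, 95% CI 0.18 to 0.46), a 1.25-fold higher level that fell just short of the threshold (adjusted p = 0.0145 by limma). Leaving out each mouse in turn gave 0.30 to 0.34 and an adjusted p between 0.0197 and 0.0371. None of the 8 member probesets was called (2 at an unadjusted p under 0.05, 0 without RUV), with 0.171% called among all. With 9 RUV factors Neat1 passed (adjusted p = 0.0033).

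After 6 h of recovery Neat1 was the called member. It read 7.05, 7.88 and 8.29 in RS6 mice against 7.17, 7.63 and 7.79 in CC11 mice, and 6 of 7 RS6 mice lay above all CC11 mice. The remaining RS6 mouse, below all CC11 mice, was replicate 1, whose array stands apart. The RUV difference was 0.44 (SE 0.073, 95% CI 0.29 to 0.58), a 1.35-fold higher level than in CC11 mice (adjusted p = 0.00138 by limma). This placed Neat1 at rank 7 of 32819 probesets. Neat1 was 1 of 8 member probesets called, and 0.149% of all probesets were called. After RUV, Neat1 averaged 7.84 in RS6, 7.87 in SD, 7.78 in CC6 and 7.41 in CC11 mice. CC6 minus RS6 was -0.06 (adjusted p = 0.858 by limma), so a rise over earlier groups is not shown.

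The Neat1 call in RS6 mice held in 14 of 14 fits that left out 1 mouse, with differences of 0.36 to 0.49 and adjusted p-values between 0.000199 and 0.00892. Without the 5 arrays the difference was 0.38 after RUV (adjusted p = 0.00341) and 0.36 without RUV (adjusted p = 0.0191). With all arrays and no RUV it was 0.24 (SE 0.18, adjusted p = 0.656). Markers of the striatum were lower in RS6 mice (mean 8.79 ± 0.52, SD, n = 7) than in CC11 mice (9.15 ± 0.33, SD, n = 7), with a median RUV difference of -0.43 over 7 markers, none of which passed. With their level as a covariate in place of RUV the Neat1 difference was 0.21 (adjusted p = 0.669). Endothelial markers had a median difference of 0.16 over 10 markers, none of which passed, and 1 of 7 excitatory neuron markers was called higher. The part of these endothelial and neuronal markers in the result was not tested, nor that of the striatal markers beyond this covariate.

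**Figure D3:**
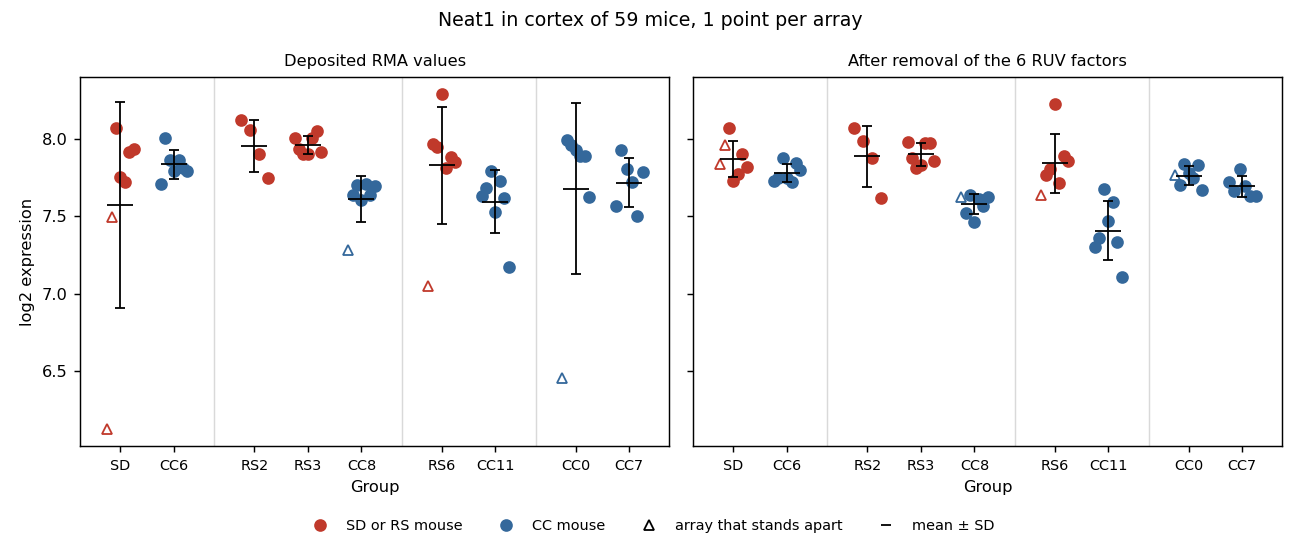
Neat1 in every mouse (log2 expression, y axis) by group (x axis), on deposited RMA values at left and after removal of the 6 RUV factors at right, with bars at the mean ± SD and open triangles for the 5 arrays that stand apart. All RS3 mice lie above all CC8 mice in both panels, and the single RS6 mouse below the CC11 mice at left is one of the 5 arrays.

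Sfpq ran the other way in RS6 mice than in SD mice. It read 8.12, 8.61 and 8.68 in RS6 mice against 8.60, 8.85 and 9.03 in CC11 mice, and 3 of 7 RS6 mice lay below all CC11 mice. After RUV all 7 RS6 mice (8.43 to 8.61) lay below all 7 CC11 mice (8.62 to 8.94). The difference of -0.20 (SE 0.054, 95% CI -0.31 to -0.10) did not pass (adjusted p = 0.0479 by limma). In RS2 and RS3 mice Sfpq differed from CC8 mice by 0.06 (95% CI -0.07 to 0.18) and 0.08 (95% CI -0.02 to 0.19). The RS6 difference minus the SD difference was tested directly and was -0.45 (SE 0.075, adjusted p = 0.000173), where 1.03% of all probesets were called, and it passed in 28 of 28 fits without 1 mouse (-0.48 to -0.40). It also passed without the 5 arrays and no RUV (-0.45, adjusted p = 0.00504) but not with all arrays and no RUV (-0.36, adjusted p = 0.344). SD and RS6 mice differ in the length of sleep deprivation as well as in recovery, and their controls in time of day.

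The same test for Neat1 gave 0.35 (SE 0.10, adjusted p = 0.0482), which did not pass. The RS6 difference minus the RS3 difference was 0.11 (SE 0.10, adjusted p = 0.730). The Neat1 difference is therefore not shown to be larger after 6 h of recovery than at the end of sleep deprivation or after 3 h of recovery.

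The remaining members gave no call in any recovery group. Pspc1 read 8.68, 8.74 and 8.83 in RS6 mice against 8.78, 8.88 and 9.01 in CC11 mice, and 5 of 7 RS6 mice lay below all CC11 mice. Its difference was -0.12 (SE 0.040, 95% CI -0.20 to -0.04, adjusted p = 0.127 by limma), while in RS2 and RS3 mice it was -0.06 and -0.07. Nono differed by -0.04 to 0.00 in the 3 recovery comparisons, with all 95% limits within 0.11 of 0. The brighter Malat1 probeset read 12.78, 12.94 and 13.02 in RS6 mice and 12.88, 13.00 and 13.04 in CC11 mice, with overlap. It differed by 0.00 in RS6 mice (95% CI -0.05 to 0.06), 0.05 in RS3 mice (95% CI -0.0029 to 0.10) and 0.04 in RS2 mice (95% CI -0.02 to 0.10). The dimmer Malat1 probeset was at -0.17 in RS6 mice (95% CI -0.33 to -0.02, adjusted p = 0.297) and the 2 Malat1 probesets correlated at -0.16 over the 59 arrays after RUV, so they do not track each other. The second Rbm14 probeset differed by 0.14 in RS3 mice (adjusted p = 0.290) and by 0.06 in both RS2 and RS6 mice.

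**Figure D4:**
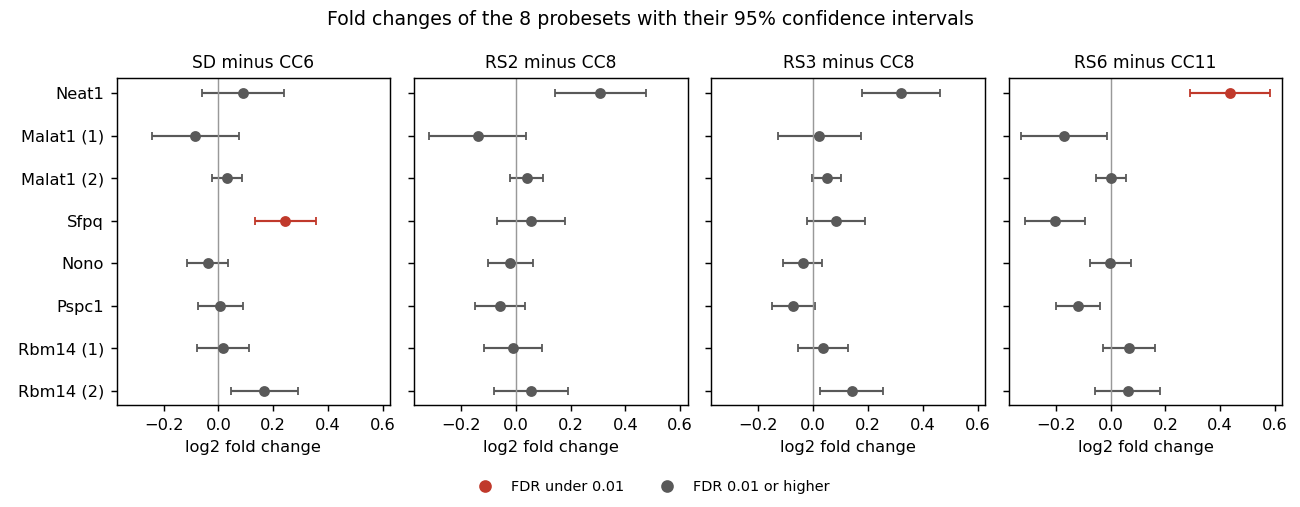
Differences of the 8 probesets after RUV (log2 fold change, x axis, with 95% confidence intervals) in the 4 sleep comparisons, one panel each; red marks an FDR under 0.01. Sfpq passed in SD minus CC6 (0.24) and Neat1 in RS6 minus CC11 (0.44), and the other intervals were grey.

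Undisturbed mice gave the course of these genes over the light phase. Neat1 read 7.17, 7.63 and 7.79 in CC11 mice, against 7.71, 7.81 and 8.00 in CC6 mice and 6.46, 7.89 and 7.99 in CC0 mice. CC11 mice overlapped both groups on RMA values, and 5 of 7 lay below all CC6 mice. After RUV the Neat1 difference was -0.37 in CC11 minus CC6 (SE 0.071, adjusted p = 0.00381 by limma) and -0.35 in CC11 minus CC0 (SE 0.074, adjusted p = 0.0027), in each case 1 of 8 member probesets called, with 0.265% and 0.975% called among all probesets. CC6 minus CC0 was 0.02 (95% CI -0.13 to 0.16), with none of the 8 called (2 at an unadjusted p under 0.05, and 1 without RUV) and 0.158% called among all. Without the 5 arrays the CC11 differences did not pass, at -0.23 from CC6 (adjusted p = 0.0793) and -0.26 from CC0 (adjusted p = 0.0335) after RUV. With all arrays and no RUV they were -0.24 (adjusted p = 0.714) and -0.08 (adjusted p = 0.844). Probeset 17550428, which only the study's tables name Neat1, did not follow this course (values given below).

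Single mice also moved the time-of-day calls. CC11 minus CC6 was past the threshold in 10 of 14 fits without 1 mouse, and the adjusted p was 0.0124 without CC6 replicate 6, 0.0115 without CC11 replicate 1, 0.0102 without CC11 replicate 6 and 0.0203 without CC11 replicate 7. CC11 minus CC0 was past it in 13 of 14, with 0.0117 without CC0 replicate 6. The same CC11 mice are the controls of the RS6 comparison, in which Neat1 of CC11 mice is also the lower side. Striatal markers ran higher in CC11 mice (9.15 ± 0.33, SD, n = 7) than in CC6 mice (8.58 ± 0.49, SD, n = 7) and CC0 mice (8.66 ± 0.44, SD, n = 7). Endothelial markers ran lower, with 2 of 10 past the threshold in CC11 minus CC6 and 3 of 10 in CC11 minus CC0, and 1 of 7 excitatory neuron markers was called lower in each. The part of the endothelial and neuronal markers in the Neat1 values was not tested, nor that of the striatal markers beyond a covariate. With the striatal level as a covariate in place of RUV neither CC11 difference of Neat1 passed, nor did either with no RUV alone.

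No other member passed between the controls. Pspc1 was 0.14 higher in CC11 than in CC0 mice (SE 0.041, adjusted p = 0.0432 by limma) and Sfpq differed by -0.18 in CC6 minus CC0 (SE 0.053, adjusted p = 0.141), neither past the threshold. The second Rbm14 probeset was at -0.15 in CC6 minus CC0 (adjusted p = 0.354) and -0.17 in CC11 minus CC0 (adjusted p = 0.131). Nono and both Malat1 probesets lay between -0.04 and 0.06 in the 3 control comparisons after RUV.

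Over all 36 pairs of the 9 groups, Neat1 passed in 6, all of which involve CC11. After RUV Neat1 was higher in SD than in CC11 by 0.46 (adjusted p = 5.71e-05 by limma, with 4.35% of all probesets called). It was higher than in CC11 by 0.48 in RS2 (adjusted p = 0.000354, 0.75% called) and 0.49 in RS3 (adjusted p = 2.25e-05, 0.737% called). The remaining pairs set CC11 against RS6, CC6 and CC0. Since the same 7 CC11 mice enter all 6, these are not separate observations. On RMA values Neat1 averaged 7.57 in SD, 7.95 in RS2, 7.96 in RS3 and 7.59 in CC11 mice, so SD was not above CC11. Without RUV no member probeset was called in RS2 or RS3 minus CC11. Sfpq passed in 5 pairs, 4 of which set SD above another group and are not separate, as they share the same 7 SD mice. Beside SD minus CC6, it differed by 0.33 in SD minus RS6 (adjusted p = 5.54e-05, with 2.81% of all probesets called), 0.24 in SD minus CC7 (adjusted p = 0.00817, 2.33% called), 0.30 in SD minus CC8 (adjusted p = 0.000287, 3.17% called) and -0.27 in RS6 minus CC0 (adjusted p = 0.00196, 1.15% called). On RMA values the SD mean of Sfpq (8.74) lay closer to those of CC6 (8.66), CC7 (8.64), CC8 (8.60) and RS6 (8.54) than after RUV. The second Rbm14 probeset passed in 1 pair, SD minus CC8, at 0.25 (adjusted p = 0.007). Malat1, Nono, Pspc1 and the first Rbm14 probeset passed in none.

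Over the groups, mean log2 RMA values of Neat1 were 7.96 ± 0.06 in RS3, 7.95 ± 0.17 in RS2, 7.83 ± 0.09 in CC6, 7.83 ± 0.38 in RS6, 7.71 ± 0.16 in CC7, 7.68 ± 0.55 in CC0, 7.61 ± 0.15 in CC8, 7.59 ± 0.20 in CC11 and 7.57 ± 0.66 in SD (SD, n = 4 in RS2, 6 in CC7 and 7 in the others). The spread was widest in the 3 groups that hold the lowest of the arrays that stand apart. Neighbours in this order did not pass, except that after RUV SD was 0.46 above CC11 (adjusted p = 5.71e-05), the reverse of their order by RMA means.

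Sfpq averaged 8.83 ± 0.15 in CC11, 8.79 ± 0.26 in CC0, 8.74 ± 0.29 in SD, 8.70 ± 0.08 in RS3, 8.68 ± 0.11 in RS2, 8.66 ± 0.11 in CC6, 8.64 ± 0.15 in CC7, 8.60 ± 0.12 in CC8 and 8.54 ± 0.19 in RS6 (log2 RMA, SD, n as above). No neighbours passed, the closest being SD over RS3 by 0.21 after RUV (adjusted p = 0.0241). Group means of the brighter Malat1 probeset lay between 12.86 (SD) and 12.99 (RS3), those of Nono between 9.70 (SD) and 9.88 (CC11), Pspc1 between 8.75 (RS6) and 8.88 (CC11) and the first Rbm14 probeset between 8.93 (CC11) and 9.08 (SD). The dimmer Malat1 probeset lay between 9.63 (RS2) and 9.91 (CC0) and the second Rbm14 probeset between 8.66 (CC8) and 9.01 (SD). No neighbours in the order of these probesets passed.

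A further 2 probesets, 17550426 and 17550428, carry no symbol in the platform table and are named Neat1 only in the study's own tables, which list probesets that changed in these mice. They are therefore given as a description, with no test. Probeset 17550426 correlated with the Neat1 member at 0.86 over the 59 arrays after RUV and averaged 8.10 ± 0.36 in RS6 mice and 7.96 ± 0.15 in CC11 mice (log2 RMA, SD, n = 7 each), with a difference of 0.40 after RUV. After RUV it averaged 8.12 in RS2, 8.18 in RS3 and 7.98 in CC8 mice. In the other controls it averaged 8.05 in CC6, 7.99 in CC0 and 7.70 in CC11 mice after RUV. Probeset 17550428 correlated with the Neat1 member at only 0.37. It averaged 7.32 ± 0.18 in RS2 (SD, n = 4), 7.48 ± 0.32 in RS3, 7.50 ± 0.20 in RS6, 6.82 ± 0.13 in CC8 and 7.04 ± 0.15 in CC11 (SD, n = 7 each), so that all recovery groups were higher than their controls, by 0.49, 0.63 and 0.57 after RUV. In SD mice it averaged 6.56 ± 0.65 and in CC6 mice 6.99 ± 0.22 (log2 RMA, SD, n = 7 each). After RUV these means were 6.81 and 6.95. Without the arrays that stand apart the SD mean was 6.88 on RMA values (n = 5). Between controls, probeset 17550428 averaged 7.04 in CC11, 6.99 in CC6 and 6.56 in CC0 mice on RMA values. After RUV these control means were 6.89, 6.95 and 6.72. The lower CC11 level of the Neat1 member was therefore not shared by this probeset.

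Other proteins found in paraspeckles were taken as a list of 25 genes, of which 21 were measured by 28 probesets. In SD mice 2 rose and 2 fell, 4 of 28 probesets, where 1.93% of all probesets were called. Hnrnpf rose by 0.15 on 1 of its 5 probesets (adjusted p = 0.00413) and Hnrnph1 by 0.25 (adjusted p = 0.00204), both splicing regulators of one family, although without RUV Hnrnph1 was at -0.20 (adjusted p = 0.568). Cirbp, the cold-inducible RNA-binding protein, fell by 0.37 (adjusted p = 0.00987) and Hnrnpr by 0.20 (adjusted p = 0.00209), and both were also called without RUV. The list's median was 0.03 against 0.00 over all probesets. None of the list passed in RS2, RS3 or RS6 mice. Between controls Rbm4b, a paralogue of Rbm4, differed by -0.34 in CC11 minus CC0 (adjusted p = 0.000692), where 0.975% of all probesets were called. The RS6 difference minus the SD difference passed for Ss18l1 at -0.26 (adjusted p = 0.00644, 1.03% called among all).

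Of 20 nuclear speckle proteins, which include the splicing factors among which Malat1 gathers, 19 were measured by 21 probesets. The SR protein Srsf2 rose by 0.15 (adjusted p = 0.00539) and the splicing-associated protein Acin1 by 0.21 (adjusted p = 0.000664) in SD mice, 2 of 21 probesets against 1.93% called among all, and none passed in the recovery groups. Both also passed for the RS6 difference minus the SD difference, at -0.21 for Srsf2 (adjusted p = 0.00726) and -0.39 for Acin1 (adjusted p = 2.02e-05), with 1.03% called among all, the same signs as for Sfpq. Without RUV none of these 4 values passed. The list's median was 0.04 in SD minus CC6 and -0.05 in RS6 minus CC11, against 0.00 and 0.01 over all probesets.

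Other long noncoding RNAs of the brain gave no call. Of 15 listed, 12 were measured by 14 probesets, among them Meg3, Miat, Rian and Snhg11, and none passed in any comparison. Their median was 0.00 in RS6 minus CC11, where Neat1 was at 0.44 and single values lay between -0.34 (Meg3) and 0.16 (Peg13). Of 8 genes flanking Neat1 and Malat1, 7 were measured, and none passed in any comparison, with a median of 0.09 in RS6 minus CC11 and 0.27 at the highest (Tigd3). Factors known to drive Neat1 transcription in other cells (4 of 6 measured) also gave no call in SD or recovery mice. One of 2 probesets of Hif1a, the hypoxia-responsive factor, was higher in CC11 than in CC0 by 0.21 (adjusted p = 0.00250), while its other probeset read -0.36. Slc7a2, whose edited transcript is held in paraspeckles, the editing enzymes Adar and Adarb1 and the arginine methyltransferase Carm1 gave no call in any comparison, with differences between -0.04 and 0.02 in RS6 minus CC11.

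The genes whose pattern was most like that of each member were taken by correlation over the 59 arrays after RUV, which share groups and scaling, so the values are descriptive. For Neat1 these were Saraf (0.78), Tufm (0.76), Hnrnpm (0.75), Tnks (0.73) and Spop (0.72). Hnrnpm, Tnks and Spop correlated with Neat1 on RMA values as well (0.88, 0.72 and 0.88), whereas Saraf and Tufm were at -0.29 and -0.49 there. Sfpq was closest to Trib2 (0.78), the splicing regulator Tra2a (0.76) and Sik2 (0.75), the brighter Malat1 probeset to Atf4 (0.65), Shank3 (0.58) and Usp19 (0.55), Nono to Enox2, Creg1 and Smim10l2a (0.57 to 0.59), Pspc1 to Ints6l, Atad2b and Phf14 (0.58 to 0.60), and the first Rbm14 probeset to Kti12, Dip2a and Tbc1d10b (0.55 to 0.60). On RMA values the genes closest to the brighter Malat1 probeset had the opposite sign, with Atf4 at -0.38, Shank3 at -0.34 and Usp19 at -0.31. Smim10l2a was at -0.31 with Nono there, Ints6l at 0.04 with Pspc1 and Trib2 at 0.22 with Sfpq. The remaining genes named for Sfpq, Nono, Pspc1 and Rbm14 were at 0.29 to 0.87. Among the members themselves, Neat1 and the brighter Malat1 probeset correlated at 0.83 on RMA values and at 0.34 after RUV, and Neat1 and Sfpq at 0.58 and 0.03. Neat1 and Pspc1 correlated at -0.34 on RMA values and -0.54 after RUV.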

How the data were processed

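Biotinylated sense-strand cDNA of cortical RNA was hybridised to Affymetrix Mouse Gene ST arrays. The deposited values are log2 expression per probeset, which the authors normalized by RMA. The RMA software, and whether RUV had also been applied before deposit, are not given in the sources used here. The labels placed 59 of 60 arrays in 9 groups. The labels of the remaining array contradict each other, and it entered no comparison. Replicates are separate mice from 7 repeats of the protocol, and their number limits the precision. Array medians ranged from 5.45 to 5.68.

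A probeset was tested if it exceeded a log2 value of 4 in over 50% of arrays (32819 of 41345 did). RUV for replicate samples, written out in R 4.3.3, estimated 6 factors from all of these probesets within the 9 groups. A single limma 3.58.1 model held the groups and the 6 factors. SD was set against CC6, RS2 and RS3 against CC8, RS6 against CC11, and 3 controls (CC0, CC6, CC11) against one another, beside all 36 pairs. Benjamini-Hochberg adjustment ran over all tested probesets, with calls at an FDR under 0.01. The filter, RUV and the threshold follow the study's methods, except that the methods removed the factors before testing, which is among the alternatives here. Fits called RMA or no RUV hold the groups alone. The fits were also run on simulated data, built from the fitted factors with independent noise and planted changes. Because such data follow the fitted model, they cannot test whether that model suits the arrays that stand apart.

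The members, gene lists and markers, and the 5 arrays treated as standing apart, were chosen with earlier results of these data known. Of the tested probesets, 19494 carry 1 gene symbol in the platform table, 1445 several and 11880 none. Each member probeset is reported in each comparison, list genes are named where they passed, and the genes most like a member are those with the highest Pearson correlation after RUV. Other list genes were named after their values were seen. Alternatives were no RUV, 3 or 9 factors, factors removed beforehand, no filter or a limit of 6, a second quantile normalization, array weights, a mean-variance trend, a replicate block, covariates for striatal markers or small nucleolar RNA, only the groups compared, and leaving out each mouse or the 5 arrays. Leaving out the 5 arrays without RUV was added after seeing the data.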

Additional observations from a re-analysis of the deposited data

Results flagged for a closer look

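In 90 sets of a probeset and a group of 4 to 7 mice, 1 mouse lay far from the others of its group in 21. These sets share mice, and some probesets correlate, so they are not independent and no chance rate is given. Most of the 21 come from the arrays that stand apart. Values are log2 RMA. For Neat1 these were SD replicate 1 (6.13), RS6 replicate 1 (7.05), CC0 replicate 1 (6.46), CC8 replicate 1 (7.28) and CC11 replicate 7 (7.17), all low. CC11 replicate 7 is not among the 5 arrays that stand apart, and without it the RS6 minus CC11 difference of Neat1 was 0.36 (adjusted p = 0.00892). The brighter Malat1 probeset was low in SD replicate 1 (12.38), RS6 replicate 1 (12.78) and CC0 replicate 1 (12.54), while the dimmer one was high in RS6 replicate 1 (10.09) and RS2 replicate 1 (9.76). Sfpq was low in RS6 replicate 1 (8.12) and RS3 replicate 5 (8.53), and Nono was low in SD replicate 1 (9.33). CC0 replicate 1 was high for Pspc1 (9.06) and the second Rbm14 probeset (9.44). Of the probesets named Neat1 only by the study, 17550426 was low in SD replicate 1 (5.38), RS6 replicate 1 (7.33), CC0 replicate 1 (6.29) and CC8 replicate 1 (7.59), and 17550428 in SD replicate 1 (5.25) and CC0 replicate 1 (5.08). For Sfpq, the effect of 6 h of recovery relative to its controls differed from that of sleep deprivation by -0.45 in a direct test (adjusted p = 0.000173).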

How the results depend on the processing

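Of the 7 comparisons with time-matched controls or between controls, 4 had 1 member probeset called (Sfpq in SD minus CC6, Neat1 in RS6 minus CC11, CC11 minus CC6 and CC11 minus CC0). The count was 0 in all 4 with no RUV, with striatal markers or the small nucleolar RNA level as a covariate without RUV, with only the 2 groups compared and no RUV, and without the 5 arrays and no RUV. It was 0 in CC11 minus CC6 and CC11 minus CC0 with array weights, with a replicate block and without the 5 arrays. With array weights it was 2 in SD minus CC6, where the second Rbm14 probeset passed as well (adjusted p = 0.00539). In RS3 minus CC8, with 0 called, it was 1 (Neat1) with 9 RUV factors, factors removed before the fit, a stricter filter and array weights. Leaving out 1 mouse gave 0 to 1 called in SD minus CC6, CC11 minus CC6 and CC11 minus CC0. Array weights were taken where their estimation stopped short of its tolerance. The cause of these changes was not tested. In these 4 comparisons the called member kept its sign under all the alternatives run. The remaining pairs of groups were fitted only with and without RUV, and in SD minus CC11 Neat1 was 0.46 after RUV and -0.02 on RMA values.

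Replicate numbers are not stated to mark the experimental day. Deviations of same-numbered mice correlated between -0.12 and 0.21, with 0 (RS6 minus CC11) to 3 (CC6 minus CC0) pairs per comparison over 0.1. Every pair over 0.1 had replicate number 1, 2 or 3, and most of the arrays that stand apart are replicate 1. The arrays that correlated best with their own number were 1 of 7 in RS6 minus CC11, CC11 minus CC6 and CC11 minus CC0, 2 of 7 in SD minus CC6, 2 of 4 in RS2 minus CC8, 3 of 7 in RS3 minus CC8 and 4 of 7 in CC6 minus CC0. Not every pair exceeded 0.1 in any comparison, so the mice were not treated as paired. Because this rule asks it of every pair, it cannot show that same-numbered mice were unrelated. With the replicate block the adjusted p of Neat1 was 0.0140 in CC11 minus CC6 and 0.0227 in CC11 minus CC0, and the block changed no other call of a member. Calls over all probesets varied most between fits of only the 2 groups without RUV and fits with the factors removed beforehand. They numbered 0 to 171 in RS2 minus CC8 (98 as reported), 0 to 106 in CC6 minus CC0 (52), 37 to 1228 in SD minus CC6 (634), 2 to 157 in RS3 minus CC8 (56), 0 to 293 in RS6 minus CC11 (49), 4 to 339 in CC11 minus CC6 (87) and 5 to 748 in CC11 minus CC0 (320). The RS6 difference minus the SD difference gave 41 calls without RUV and 667 with the factors removed beforehand (338). In RS6 minus CC11 with limma and no RUV, 0 were called and 3477 had an unadjusted p under 0.05.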

Other observations

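The array left out of the groups, whose labels name 1 h of recovery in one place and RS2 in another, read 7.79 for Neat1, 12.98 and 9.91 for the Malat1 probesets, 8.84 for Sfpq, 9.90 for Nono, 8.79 for Pspc1 and 8.89 for the second Rbm14 probeset on the log2 RMA scale.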
